A study of Caenorhabditis elegans with 12 samples.

Results

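The messenger RNAs of 10 macroautophagy genes were followed in adult Caenorhabditis elegans, measured by poly(A) sequencing of whole animals. They were picked by their WormBase symbols and looked up by gene identifier in the deposited table, which lists 46726 gene IDs. All 10 were found, and all 10 were among the 16764 genes with enough counts to be tested. They comprise the kinase gene unc-51, the membrane supply and lipid-binding genes atg-2, atg-9 and atg-18, the lipid kinase subunit gene bec-1, the conjugation enzyme gene atg-7, the ATG8 genes lgg-1 and lgg-2, the tether gene epg-5 and the receptor gene sqst-1.

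Autophagy wraps cytoplasm, protein aggregates or organelles in a double membrane, the autophagosome, and delivers them to the lysosome for breakdown. A kinase complex starts the process, a lipid kinase marks the site with phosphatidylinositol 3-phosphate, lipid is moved into the growing membrane, and small ubiquitin-like ATG8 proteins are attached to it. Receptors carry cargo to ATG8, tethers bring the closed vesicle to the lysosome, and in C. elegans several of these genes are needed for the long life of long-lived strains.

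The study compared mir-71(n4115) mutants, strain MT12993, with N2, the laboratory wild type, at day 5 and at day 0 of adulthood. mir-71 encodes a microRNA, a short RNA that represses messenger RNAs. Each of the 4 groups (mutants at day 5, mutants at day 0, N2 at day 5 and N2 at day 0) held 3 biological replicates of whole animals. Every group was kept at 20 °C and was placed, close to the last larval molt, on 5-fluorodeoxyuridine at 0.1 mg/mL, an inhibitor of DNA synthesis that blocks the production of progeny. The mutants are 1 strain carrying 1 allele.

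The 12 libraries held 20.5 M to 65.2 M counts (M for mega), and the members had between 166 counts (epg-5) and 41956 counts (lgg-1) in a library. The mir-71 gene itself was at 0 counts in all 12 libraries, N2 included, so these poly(A) libraries do not check the genotype. Age dominated the libraries: the first principal component carried 80.8% of the variance and ran from 90.3 to 133.5 in day 5 libraries and from -153.2 to -75.4 in day 0 libraries. Sperm and oocyte genes moved strongly with age, and in RNA of whole animals fewer cells of a type and less RNA per cell cannot be told apart.

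One library stood apart for the members. Levels are given in CPM, counts scaled to a common library size, as edgeR computes them. Mutant day 0 replicate 1 was the lowest of the 12 libraries for 7 of the 10 members: unc-51, lgg-2, atg-2, atg-9, atg-18, epg-5 and sqst-1. In that library the 763 tested genes with more than 4 kb of exon had a median of -0.51 on the log2 CPM scale relative to each gene's mean over the 12 libraries, and the 5583 genes under 1 kb had a median of 0.35. In the other 11 libraries the genes over 4 kb had medians between -0.08 and 0.19. The long members, atg-2 and epg-5, are therefore given below with and without that library, for age in mutants and the genotypes at day 0. The short member lgg-1 (708 exonic bases) is given so for the genotypes at day 0. N2 day 0 replicate 1 (-82.9) lay near it (-75.4) on the first principal component, with the other day 0 libraries at -103.7 to -153.2. Summed sperm markers were 648 and 543 CPM in these libraries, against 784 to 1543 CPM in the other day 0 libraries. Summed muscle markers were 11257 and 8859 CPM, against 12515 to 19325 CPM. Intestine sums were 2657 and 2102 CPM, against 3285 to 4915 CPM, and epidermis sums 2022 and 1863 CPM, against 2508 to 2900 CPM. Germline, oocyte and neuronal sums overlapped. The part of RNA length and of this makeup in these values was not tested.

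**Figure D1:**
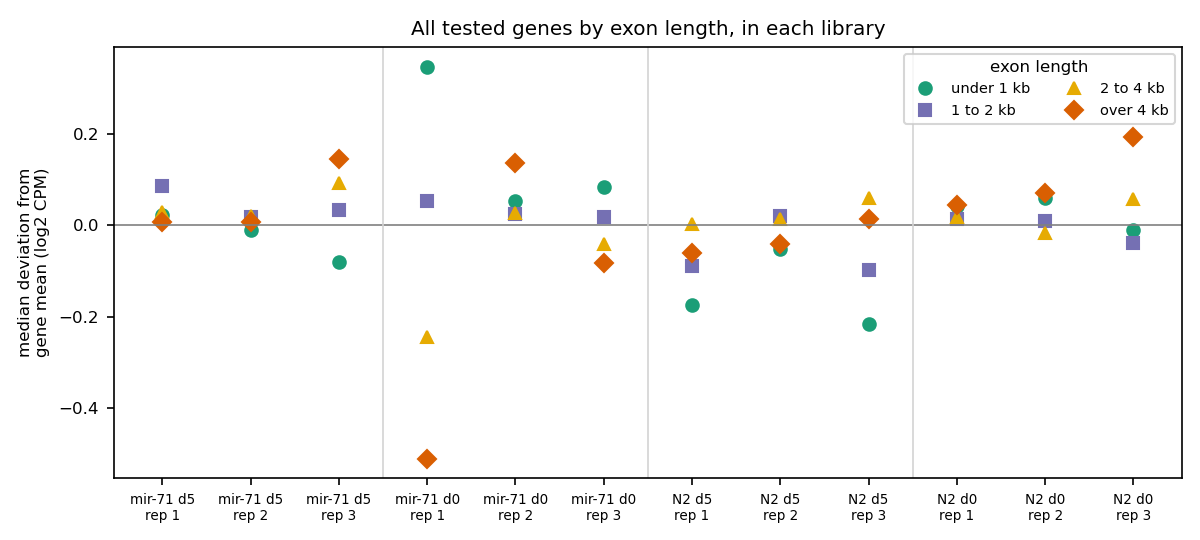
Median deviation of tested genes from their own mean over the 12 libraries (log2 CPM) in 4 classes of exon length, for each library. Mutant day 0 replicate 1 has genes under 1 kb at 0.35 and genes over 4 kb at -0.51, while the genes over 4 kb lie between -0.08 and 0.19 in the other libraries.

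Coordinates are those of the WBcel235 build, 1-based, from the Ensembl release 115 annotation, and spans are of the whole gene. On chromosome II lie lgg-1 (WBGene00002980, 6346960 to 6347719, minus strand, 2 exons, 708 exonic bases) and epg-5 (WBGene00016968, 6598344 to 6609365, minus strand, 23 exons, 7291 exonic bases). Chromosome IV holds bec-1 (WBGene00000247, 5661141 to 5664425, minus strand), lgg-2 (WBGene00002981, 10934196 to 10935903, minus strand), atg-7 (WBGene00010882, 11078682 to 11081055, minus strand) and sqst-1 (WBGene00011737, 12034282 to 12036891, plus strand). Chromosome V holds atg-9 (WBGene00020706, 349385 to 359658, plus strand), atg-18 (WBGene00018294, 8629174 to 8631327, minus strand) and unc-51 (WBGene00006786, 19995986 to 20004485, minus strand). The X chromosome holds atg-2 (WBGene00019748, 6806763 to 6817266, plus strand), the longest member at 7547 exonic bases. The counts of epg-5 could include few reads from another gene: vps-33.2, on the opposite strand, shares 8 exonic bases with it. The annotated ncRNAs that lie inside bec-1 and atg-2 share 0 exonic bases with them.

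The members spanned a wide range of levels. Per kilobase of exon, lgg-1 was the most abundant member in every group, at 982 ± 56.9 CPM per kb in mutants at day 5, 749 ± 107 in mutants at day 0, 844 ± 144 in N2 at day 5 and 558 ± 52.6 in N2 at day 0 (SD, n = 3 each). The second ATG8 gene, lgg-2, came next in every group, at 206 ± 6.15, 107 ± 25.3, 194 ± 10.5 and 110 ± 8 CPM per kb in the same 4 groups. The tether gene epg-5 was last in every group, at 1.69 ± 0.34, 1.04 ± 0.58, 1.498 ± 0.08 and 1.21 ± 0.19 CPM per kb. Within each group every lgg-1 library was above every lgg-2 library, and every epg-5 library was below every library of atg-2, the member above it.

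The receptor gene sqst-1 changed its place in that order. In mutants at day 5 it ranked 3 of 10, at 155 ± 21.6 CPM per kb, with every library above those of atg-18. In mutants at day 0 it ranked 5, at 34.7 ± 9.42 CPM per kb, and overlapped atg-7. In N2 at day 5 it ranked 4, at 97.5 ± 3.48 CPM per kb, and overlapped atg-18 (105 ± 5.13 CPM per kb), and in N2 at day 0 it ranked 5, at 39.8 ± 11.5 CPM per kb, and overlapped both bec-1 and atg-7. Also unresolved in this order were unc-51 and atg-9, which overlapped in every group but N2 at day 5. In mutants at day 0 unc-51 (9.04 to 19.9 CPM per kb) overlapped atg-2 (4.62 to 10.5 CPM per kb) as well.

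**Figure D2:**
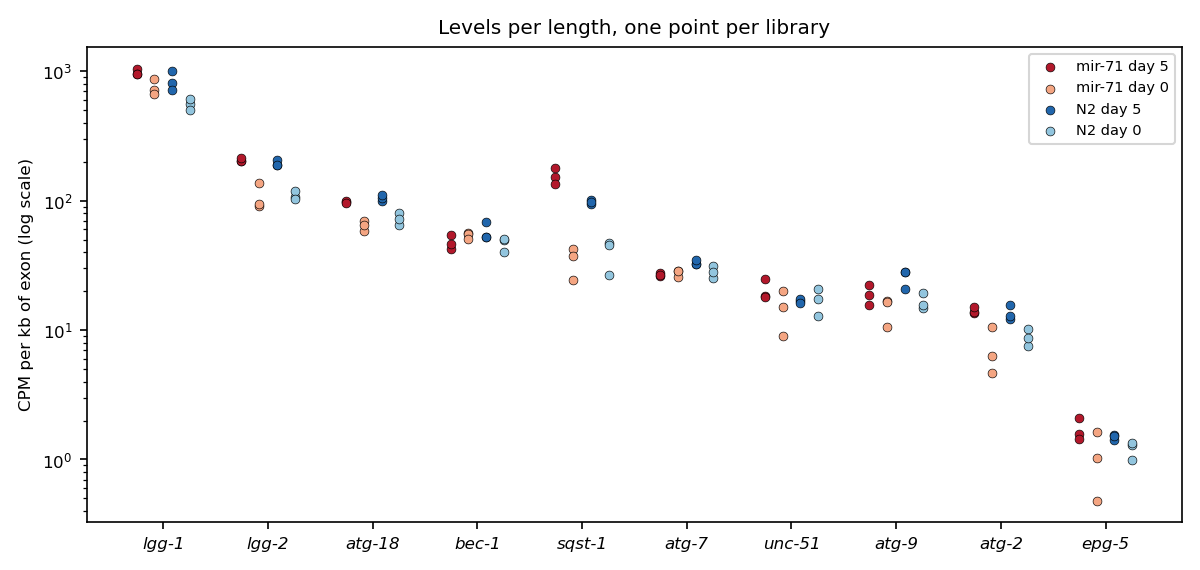
Level of each member in CPM per kb of exon (log axis), 1 point per library, for mutants at day 5 and day 0 and N2 at day 5 and day 0. The order runs from lgg-1 at the left (558 to 982 as group means) to epg-5 at the right (1.04 to 1.69), and sqst-1 moves most between ages.

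The first question was how the members differed between day 5 and day 0 within each genotype. In mir-71 mutants 5 of the 10 members rose with age and none fell: sqst-1, atg-2, lgg-2, atg-18 and lgg-1 (edgeR quasi-likelihood F-test, Benjamini-Hochberg adjusted p under 0.05). Of all tested genes 52.3% passed that threshold in mutants, with 24.9% higher and 27.4% lower at day 5. In N2 6 of 10 rose and none fell: the same 5 genes and atg-9. Of all genes 52.1% passed in N2, with 23.8% higher and 28.2% lower. The median log2 difference of the members was 0.54 in mutants and 0.57 in N2, beside 0.01 and -0.09 over all tested genes.

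In mutants the libraries of the ages did not overlap for 5 of 10 members, beside 59.1% of all genes. In N2 they did not overlap for 9 of 10 members, beside 62% of all genes. The member that did overlap in N2 was unc-51.

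**Figure D3:**
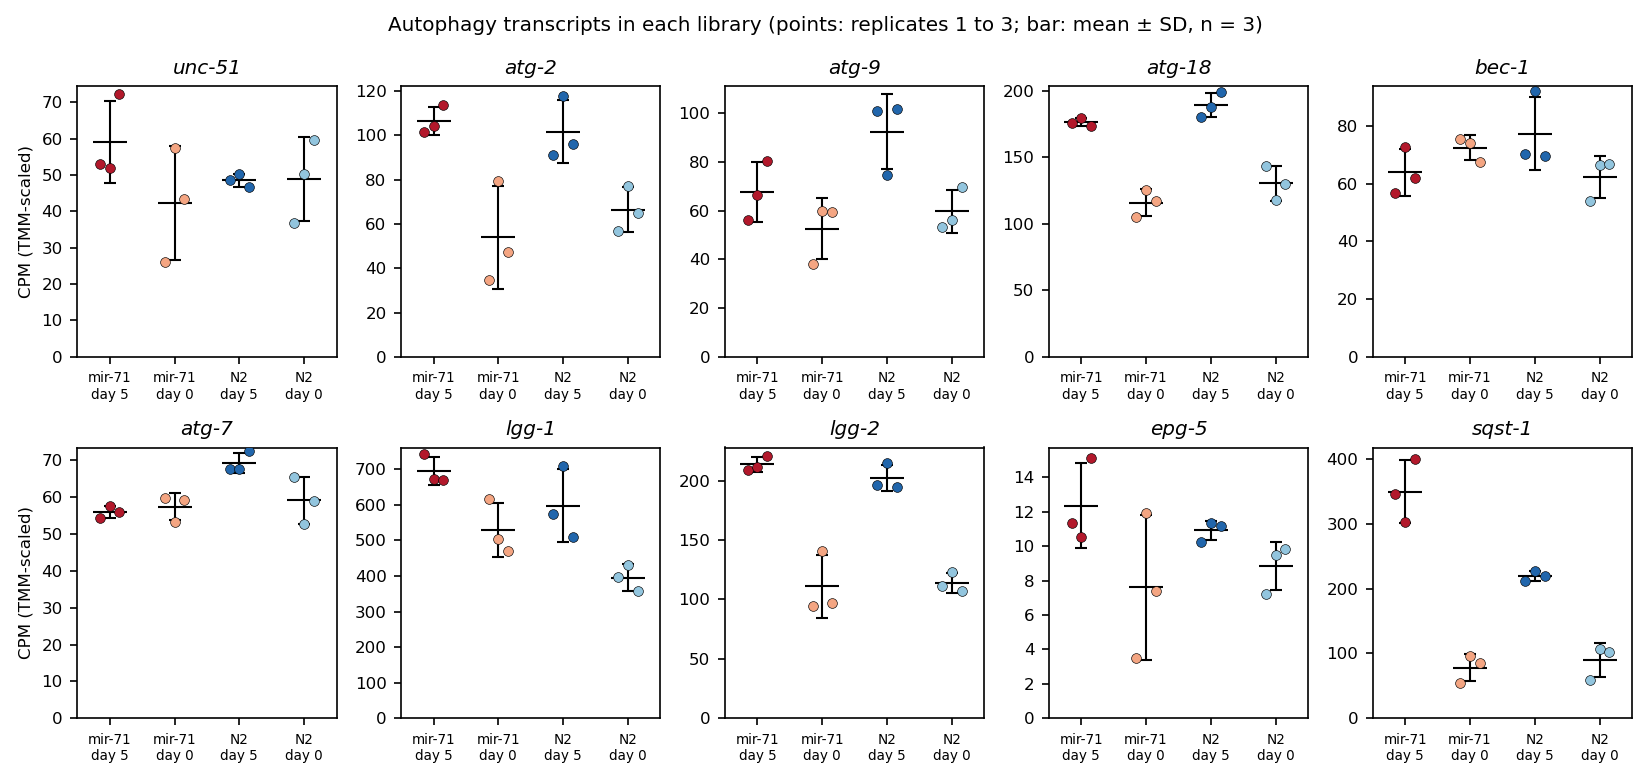
CPM of each member in each library (points, 3 replicates per group) with the mean and SD (bars), for mutants at day 5 and day 0 and N2 at day 5 and day 0. The ages are apart for sqst-1, lgg-1, lgg-2, atg-2 and atg-18 in both genotypes, and 1 mutant day 0 library, replicate 1, is low for most members.

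Initiation depends on unc-51, the C. elegans ULK1 and Atg1 kinase, named for the uncoordinated movement and axon defects of its mutants. In mutants at day 5 it had 53.0, 52.0 and 72.2 CPM in replicates 1, 2 and 3, against 26.2, 57.6 and 43.4 CPM in mutants at day 0. N2 had 48.7, 50.3 and 46.7 CPM at day 5 and 36.9, 50.2 and 59.7 CPM at day 0. The ages overlapped in both genotypes, and neither difference passed the test: log2 0.48 ± 0.25 in mutants (SE, adjusted p = 0.132) and -0.01 ± 0.25 in N2 (adjusted p = 0.976). In mutants the value was 0.18 without day 0 replicate 1 and 0.77 without day 0 replicate 2, where it passed (adjusted p = 0.0191).

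atg-2 encodes the large protein that moves lipid from the endoplasmic reticulum into the growing membrane. It had 101.5, 104 and 114 CPM in mutants at day 5, against 34.8, 79.6 and 47.3 CPM in mutants at day 0. N2 had 91.2, 118 and 96.1 CPM at day 5, against 57.0, 77.2 and 65.2 CPM at day 0. Every day 5 library was above every day 0 library of its genotype. The rise was log2 0.98 ± 0.24 in mutants (1.97-fold, adjusted p = 0.00447) and 0.62 ± 0.24 in N2 (1.53-fold, adjusted p = 0.0473). Without mutant day 0 replicate 1 the mutant value was 0.70 (adjusted p = 0.0125). The N2 call was lost when any of 5 of the 6 N2 libraries was left out, with adjusted p up to 0.142.

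atg-9 encodes the membrane-spanning lipid scramblase carried on vesicles to the site of assembly. In mutants it had 56.1, 66.4 and 80.4 CPM at day 5 and 38.04, 60.0 and 59.5 CPM at day 0. The N2 libraries had 100.8, 74.7 and 101.6 CPM at day 5 and 53.2, 56.3 and 69.6 CPM at day 0. The ages overlapped in mutants and were apart in N2, where atg-9 rose by log2 0.63 ± 0.20 (1.55-fold, adjusted p = 0.02). The mutant difference of 0.37 ± 0.20 did not pass (adjusted p = 0.147) and was 0.13 without day 0 replicate 1 (adjusted p = 0.569), and 0.22 without day 5 replicate 3 (adjusted p = 0.433), and the difference between the genotypes was -0.26 ± 0.29 (adjusted p = 0.725). The N2 call was lost without day 0 replicate 1, day 0 replicate 2, day 5 replicate 1 or day 5 replicate 3, with adjusted p up to 0.0702.

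atg-18 encodes the WIPI-type protein that binds phosphatidylinositol 3-phosphate and recruits ATG-2. Its replicates at mutant day 5 were the tightest of the members relative to their mean, at 175, 179 and 173 CPM, against 105, 125 and 117 CPM in mutants at day 0. In N2 atg-18 had 180.4, 188 and 199 CPM at day 5 and 144, 117 and 130.1 CPM at day 0. No library of one age reached the other in either genotype. The rise was log2 0.60 ± 0.11 in mutants (1.52-fold, adjusted p = 0.00056) and 0.54 ± 0.11 in N2 (1.45-fold, adjusted p = 0.00134), and it passed under every alternative that was run.

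bec-1 encodes the Beclin subunit of the lipid kinase complex. It had 56.8, 72.8 and 61.9 CPM in mutants at day 5 and 75.6, 74.2 and 67.6 CPM in mutants at day 0. N2 had 70.3, 91.9 and 69.7 CPM at day 5 and 54, 66.3 and 66.9 CPM at day 0. The ages overlapped in mutants and were apart in N2, where day 5 was higher. Neither difference passed the test, at -0.18 ± 0.14 in mutants (adjusted p = 0.31) and 0.31 ± 0.15 in N2 (adjusted p = 0.0909).

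atg-7 encodes the E1-like enzyme that activates the ATG8 proteins for attachment to lipid, and it varied least of the members, with 1.38 times between its lowest and highest library. In mutants it had 54.4, 57.5 and 56.0 CPM at day 5 and 59.7, 53.2 and 59.2 CPM at day 0. The N2 libraries had 67.8, 67.7 and 72.5 CPM at day 5 and 65.6, 52.7 and 59.1 CPM at day 0. The ages overlapped in mutants, and in N2 the 3 day 5 libraries were the higher ones. The differences were -0.04 ± 0.11 in mutants (95% interval -0.27 to 0.20, adjusted p = 0.811) and 0.23 ± 0.11 in N2 (adjusted p = 0.0992).

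The ATG8 gene lgg-1, of the GABARAP type, encodes the protein most used to mark autophagosomes in this animal. It had 742, 673 and 671 CPM in mutants at day 5, against 615, 505 and 470 CPM in mutants at day 0. N2 had 574, 709 and 509 CPM at day 5, against 396, 432 and 357 CPM at day 0. All day 5 libraries were above the day 0 libraries of their genotype. The rise was log2 0.39 ± 0.15 in mutants (1.31-fold, adjusted p = 0.0434) and 0.60 ± 0.15 in N2 (1.51-fold, adjusted p = 0.00513). The mutant call was close to the threshold and was lost in 13 of 17 alternatives, among them 5 of the 6 that left out a mutant library, with adjusted p up to 0.298 (without day 0 replicate 3).

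lgg-2, of the LC3 type, encodes the second ATG8 protein. In mutants it had 209, 212 and 221 CPM at day 5 and 94.4, 141 and 97.3 CPM at day 0. N2 had 197, 215 and 195 CPM at day 5 and 111, 123 and 107 CPM at day 0. The 4 groups split by age alone, with all 6 day 5 libraries above all 6 day 0 libraries. The rise was log2 0.95 ± 0.15 in mutants (1.93-fold, adjusted p = 0.000181) and 0.83 ± 0.15 in N2 (1.77-fold, adjusted p = 0.000486), and both calls held under every alternative that was run.

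epg-5 encodes a metazoan tether that joins autophagosomes to late endosomes and lysosomes. It was the scarcest member, with 11.4, 10.5 and 15.2 CPM in mutants at day 5 and 3.496, 11.9 and 7.42 CPM in mutants at day 0. In N2 it had 10.3, 11.3 and 11.2 CPM at day 5 and 7.24, 9.50 and 9.82 CPM at day 0. The ages overlapped in mutants, where day 0 replicate 1 was the lowest of all libraries, and were apart in N2. The differences were 0.69 ± 0.34 in mutants (adjusted p = 0.107) and 0.30 ± 0.34 in N2 (adjusted p = 0.481). The mutant value was 0.30 without day 0 replicate 1 and 1.20 without day 0 replicate 2, where it passed (adjusted p = 0.006).

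sqst-1 encodes the p62 receptor, which binds ubiquitin-tagged cargo and ATG8 and is itself degraded by autophagy. It had 345, 303 and 400.4 CPM in mutants at day 5, against 54.5, 95.4 and 84.7 CPM in mutants at day 0. N2 had 212, 228 and 219 CPM at day 5, against 59.6, 106 and 103 CPM at day 0. The 3 mutant day 5 libraries were the highest of the 12, and all 6 day 5 libraries were above all 6 day 0 libraries. The rise was log2 2.16 ± 0.24 in mutants (4.47-fold, adjusted p = 1.64e-05) and 1.29 ± 0.23 in N2 (2.45-fold, adjusted p = 0.000554). It was the largest rise of the 10 members in both genotypes, and both calls held under every alternative that was run. Without mutant day 0 replicate 1 the mutant value was 1.91.

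**Figure D4:**
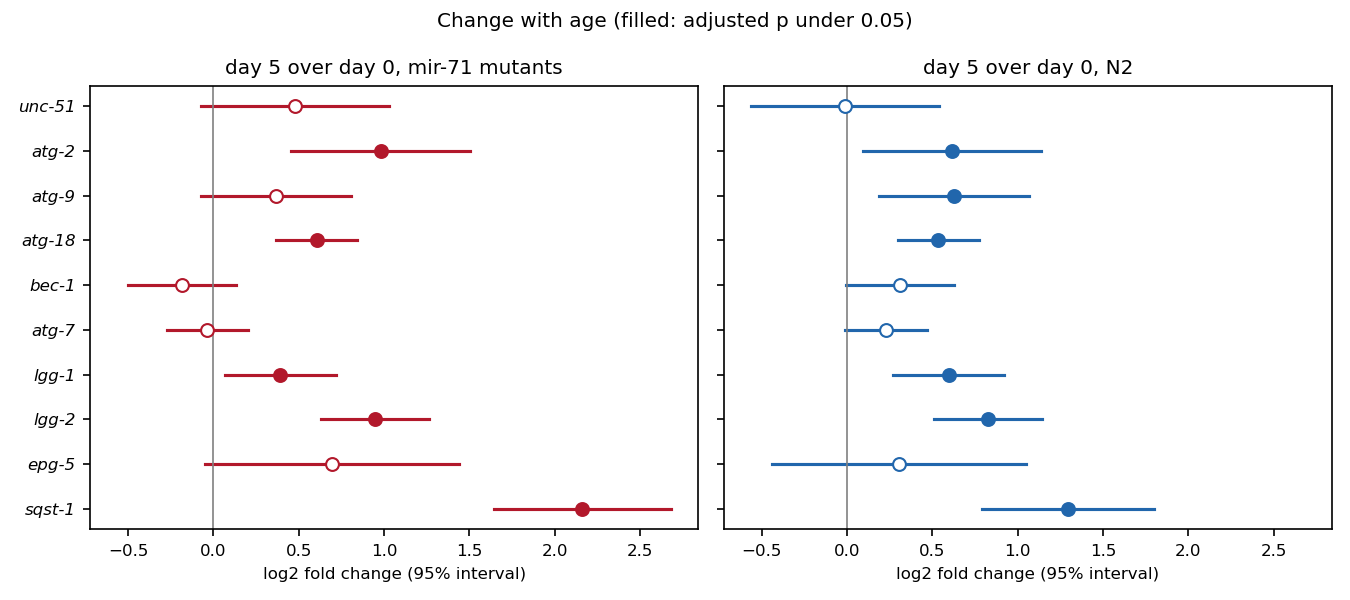
Log2 fold change of each member at day 5 over day 0 in mutants (left) and N2 (right), with 95% intervals, and filled points for adjusted p under 0.05. sqst-1 has the largest value in both panels, at 2.16 in mutants and 1.29 in N2, and unc-51, bec-1, atg-7 and epg-5 pass in neither.

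Of the 11 member rises, 7 kept their call under every alternative: those of lgg-2, atg-18 and sqst-1 in both genotypes and that of lgg-1 in N2. Leaving out N2 day 0 replicate 1 and mutant day 0 replicates 1 and 3 together left 3 calls in mutants and 6 in N2. The calls lost in mutants were lgg-1 (adjusted p = 0.132) and atg-2 (log2 0.38, adjusted p = 0.127), and the single mutant day 0 library was then assumed to vary like the other groups.

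Marker genes of several tissues moved with age beside the members. All 10 oocyte markers rose in both genotypes, with summed CPM of 9386 to 11606 in mutants at day 5, 3580 to 5252 in mutants at day 0, 10642 to 15174 in N2 at day 5 and 3400 to 5771 in N2 at day 0. All 13 sperm markers fell in both genotypes, to sums of 10.2 to 20.0 CPM in mutants at day 5, against 543 to 1442 at day 0, and to 6.02 to 9.82 CPM in N2 at day 5, against 648 to 1543 at day 0. All 10 body wall muscle markers also fell, to sums of 2863 to 3226 CPM in mutants at day 5, against 8859 to 17712 at day 0, and to 1647 to 1910 CPM in N2 at day 5, against 11257 to 19325 at day 0. Of 8 tested epidermis markers 6 fell in mutants, and 5 fell and 1 rose in N2, with sums of 324 to 494 CPM in mutants at day 5, 1863 to 2757 in mutants at day 0, 154 to 218 in N2 at day 5 and 2022 to 2900.3 in N2 at day 0. Of 10 neuronal markers 3 rose in mutants, and 1 rose and 4 fell in N2, while their sums were higher at day 5 in both genotypes. The sums were 446 to 526 CPM in mutants at day 5, against 274 to 303 at day 0. In N2 they were 339 to 402 CPM at day 5, against 279 to 295 at day 0. Of 8 germline markers 1 rose and 3 fell in mutants and 2 rose and 2 fell in N2, with sums of 1535 to 2052 CPM in mutants at day 5, 1851 to 2254 in mutants at day 0, 2014 to 2943 in N2 at day 5 and 2132 to 2713 in N2 at day 0. Intestine markers were mixed, with 2 up and 1 down of 7 in mutants and 3 up and 3 down in N2. Their sums were 2730 to 4466 CPM in mutants at day 5, against 2102 to 4258 at day 0. In N2 they were 2024 to 2175 CPM at day 5, against 2657 to 4915 at day 0. No listed marker was at 0 in all libraries. The part of tissue makeup in the rises of the members was not tested.

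The second question was how the members differed between mutants and N2 of the same age. At day 0 no member passed the test, where 0.131% of all genes did (0.0716% higher and 0.0597% lower in mutants), and DESeq2 and limma called 0 members as well. Among the members lgg-1 alone had an unadjusted p under 0.05. Its mutant libraries (470 to 615 CPM) lay above those of N2 (357 to 432 CPM), a difference of log2 0.42 ± 0.15 (1.34-fold, adjusted p = 0.906). The highest of them was mutant day 0 replicate 1, in which short genes ran high. Without that library the value of lgg-1 was 0.32, and with the trend in gene length removed it was 0.28. bec-1 was also apart at day 0, at 67.6 to 75.6 CPM in mutants and 54 to 66.9 CPM in N2 (log2 0.22 ± 0.14, adjusted p = 0.906). These 2 of 10 members compare with 9.32% of all genes whose genotypes were apart at day 0. The intervals of the other members at day 0 differed in width. They ran from -0.28 to 0.20 for atg-7, from -0.82 to 0.22 for atg-2 and from -0.96 to 0.53 for epg-5. Without mutant day 0 replicate 1 the day 0 value of atg-2 was -0.05, in place of -0.30. That of epg-5 was then 0.14, in place of -0.22.

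At day 5 no member passed either, where 10.7% of all genes did, with 7.63% higher and 3.1% lower in mutants. With RLE factors that split was 6.64% and 4.92%, with upper-quartile factors 8.64% and 2.27%, with DESeq2 9.57% and 8.71%, with limma 7.73% and 5.64%, and with the trend in gene length removed 7.56% and 9.54%. The DESeq2 shares, here and below, leave out genes of the given direction that had no adjusted p. DESeq2 and limma each called 1 member, atg-7. An unadjusted p under 0.05 was found for 3 members: sqst-1, atg-7 and atg-9. The genotypes were apart for 4 of 10 members, sqst-1, atg-7, atg-18 and unc-51, and for 38.4% of all genes.

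sqst-1 was the member with the largest difference between the genotypes at day 5. Its mean was 350 ± 48.7 CPM in mutants and 220 ± 7.83 CPM in N2 (SD, n = 3 each). The log2 difference was 0.67 ± 0.23 (1.59-fold, 95% interval 0.17 to 1.17), with an adjusted p of 0.0785. It passed in 5 of 17 alternatives, among them the fit on the 6 day 5 libraries alone (0.67, adjusted p = 0.00671) and the fit with replicate number as a block (0.67, adjusted p = 0.0338). It did not pass with DESeq2 or limma, and leaving out single day 5 libraries gave 0.56 to 0.76 with adjusted p between 0.0931 and 0.217.

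atg-7 was lower in each mutant library at day 5, with a mean of 56.0 ± 1.54 CPM in mutants and 69.3 ± 2.73 CPM in N2. The difference was log2 -0.31 ± 0.11 (0.807-fold, 95% interval -0.55 to -0.07), with an adjusted p of 0.0902. It passed with RLE factors (-0.39, adjusted p = 0.048), DESeq2 (-0.39, adjusted p = 0.0114), limma on the deposited log2 values (-0.27, adjusted p = 0.0467) and with the length trend removed (-0.40, adjusted p = 0.0307). atg-9 averaged 67.7 ± 12.2 CPM in mutants and 92.4 ± 15.3 CPM in N2 at day 5, and its libraries overlapped (log2 -0.45 ± 0.20, adjusted p = 0.167). It passed only with the length trend removed (-0.52, adjusted p = 0.037).

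For the ATG8 genes the genotypes overlapped at day 5. lgg-1 averaged 695 ± 40.3 CPM in mutants and 598 ± 102 CPM in N2 (log2 0.22, 95% interval -0.11 to 0.54). That value was 0.12 without N2 day 5 replicate 3 (adjusted p = 0.767) and 0.34 without N2 day 5 replicate 2 (adjusted p = 0.169), and in 17 alternatives it did not pass. With the length trend removed it was 0.09 (adjusted p = 0.635). lgg-2 averaged 214 ± 6.39 CPM in mutants and 202 ± 10.95 CPM in N2 (log2 0.08, interval -0.23 to 0.40). The interval for lgg-2 leaves out a change of 1.5-fold in either direction, while that of epg-5 (-0.56 to 0.92) includes a value 1.5-fold higher in mutants. At day 5 the neuronal markers were higher in mutants for 5 of 10 genes, with sums of 446 to 526 CPM in mutants and 339 to 402 CPM in N2, and the muscle markers for 5 of 10, with the sums given above. Of the 7 intestine markers 2 were higher and 1 lower in mutants, with sums of 2730 to 4466 CPM in mutants and 2024 to 2175 CPM in N2. Of the 8 epidermis markers 1 was higher, and of the germline, oocyte and sperm markers 0 passed. The part of these markers in the differences of the members was not tested.

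**Figure D5:**
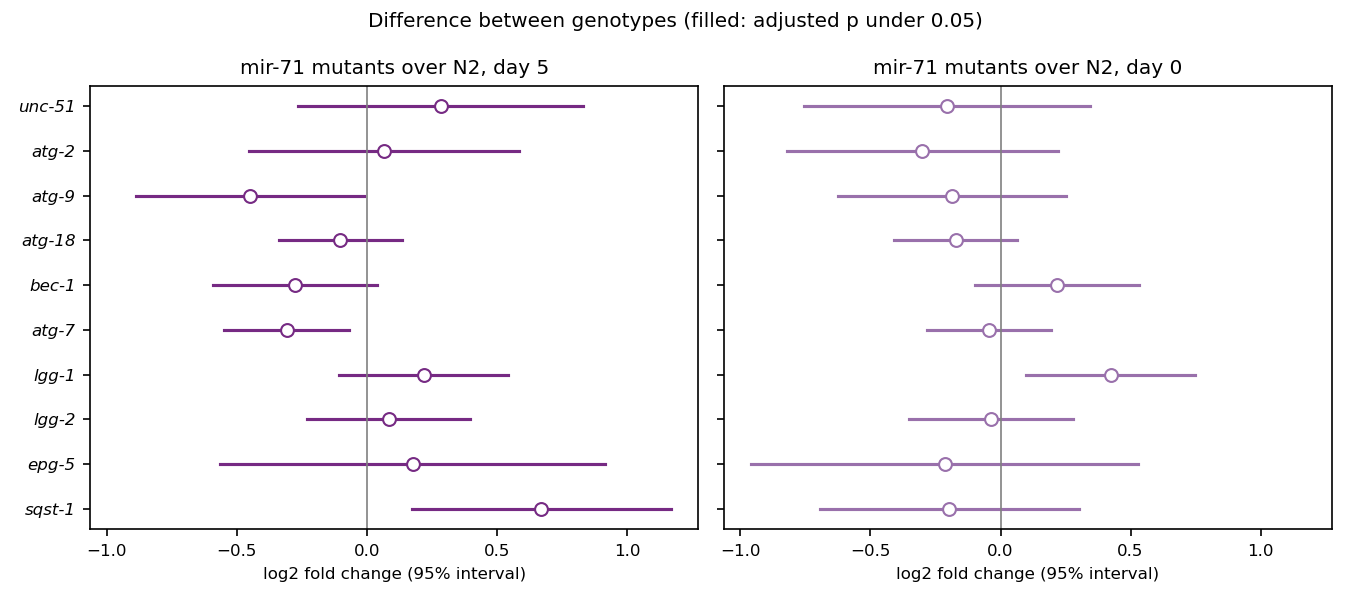
Log2 fold change of each member in mutants over N2 at day 5 (left) and day 0 (right), with 95% intervals, and open points because no adjusted p was under 0.05. At day 5 the intervals of sqst-1 (0.17 to 1.17), atg-7 (-0.55 to -0.07) and atg-9 (-0.89 to -0.01) leave out 0, and at day 0 that of lgg-1 (0.10 to 0.75).

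Averaged over both ages no member passed, where 5.21% of all genes did (4.05% higher and 1.16% lower in mutants), and DESeq2 and limma called 0 members. With DESeq2 that split was 6.31% and 4.87%, with limma 3.99% and 2.09%, and with the length trend removed 3.51% and 2.38%. Unadjusted p was under 0.05 for 3 members: lgg-1 (log2 0.32 ± 0.11, adjusted p = 0.0981), atg-7 (-0.18 ± 0.08, adjusted p = 0.197) and atg-9 (-0.32 ± 0.14, adjusted p = 0.204). Without N2 day 5 replicate 2, lgg-1 passed (0.40, adjusted p = 0.0482), and with the length trend removed its value was 0.19 (adjusted p = 0.177). The change with age was then compared between the genotypes. No member passed, where 0.555% of all genes did (0.453% with the higher value in mutants and 0.101% with the lower), and DESeq2 and limma called 0 members too. With DESeq2 the split was 2.39% and 1.33%, with limma 0.68% and 0.286%, and with the length trend removed 0.416% and 0.181%. An unadjusted p under 0.05 was found for 2 members. For sqst-1 the rise in mutants exceeded that in N2 by log2 0.87 ± 0.32 (95% interval 0.16 to 1.57, adjusted p = 0.264), and for bec-1 the difference was -0.49 ± 0.20 (interval -0.94 to -0.05, adjusted p = 0.306).

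The wider pathway was read from 6 further lists, whose counts with age stand beside the 24.9% of all tested genes that rose and 27.4% that fell in mutants, and the 23.8% and 28.2% in N2. Of 18 other tested autophagy genes 8 rose and none fell with age in mutants, and 10 rose and none fell in N2. With the smallest p in mutants were epg-6 (log2 0.79 ± 0.11, adjusted p = 9.35e-05), a further binder of phosphatidylinositol 3-phosphate, epg-2 (1.60 ± 0.25, adjusted p = 0.000181), a nematode adaptor that targets protein aggregates, and lgg-3 (0.98 ± 0.15, adjusted p = 0.000199), the ATG12 protein. In N2 they were lgg-3 (1.39 ± 0.15), epg-6 (0.90 ± 0.11) and epg-4 (0.84 ± 0.13), an endoplasmic reticulum protein. The conjugation enzymes atg-3 (0.46 in mutants and 0.75 in N2) and atg-4.2 (1.01 and 1.03) rose in both genotypes. The lipid kinase subunits vps-34 (-0.29 and -0.26) and vps-15 (-0.12 and 0.04) passed in neither, and neither did atg-7 and bec-1. A further gene of the lipid kinase complex, epg-8, rose in N2 (0.90 ± 0.18, adjusted p = 0.00109). In mutants epg-8 averaged 80.3 ± 4.68 CPM at day 5 and 57.3 ± 15.6 CPM at day 0.

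Of 6 tested genes for selective receptors and mitophagy 2 rose in mutants, where 24.9% of all genes did, and 4 rose in N2, where 23.8% did, and none fell. allo-1, a receptor for paternal organelles, rose by 1.61 ± 0.10 in mutants (adjusted p = 8.73e-07) and 1.38 ± 0.09 in N2 (adjusted p = 1.24e-06). pdr-1, the parkin gene, rose by 0.73 ± 0.14 in mutants and 0.86 ± 0.14 in N2. dct-1, of the BNIP3 type, had 0.34 in mutants (adjusted p = 0.259) and 0.49 in N2 (adjusted p = 0.112), and pink-1 rose in N2 (0.33 ± 0.11, adjusted p = 0.0278) and had -0.10 in mutants (adjusted p = 0.498). The pink-1 call in N2 was lost in 7 of 17 alternatives, with adjusted p up to 0.144. Among them were 3 of the 6 that left out an N2 library.

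Of 10 genes for the fusion of autophagosomes with lysosomes, 6 rose and 1 (vps-18, -0.73 ± 0.19) fell in mutants, and 7 rose in N2, beside 24.9% of all genes rising in mutants and 23.8% in N2. The SNARE gene snap-29 rose by 1.33 ± 0.13 in mutants and 1.12 ± 0.13 in N2, and the HOPS tethering genes vps-41 by 1.75 ± 0.18 and 1.60 ± 0.18 and vps-39 by 0.84 ± 0.14 and 1.06 ± 0.14. Of 8 lysosomal membrane and channel genes 6 rose in each genotype, led by the cystine transporter gene ctns-1 (1.39 ± 0.14 in mutants and 1.56 ± 0.14 in N2).

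The V-ATPase is the pump that acidifies the lysosome. Of its 20 subunit genes 2 rose and 7 fell in mutants, where 24.9% of all genes rose and 27.4% fell. In N2 3 rose and 9 fell, beside 23.8% and 28.2% of all genes, and the list medians were -0.24 in mutants and -0.32 in N2. vha-3 fell by 0.86 on the log2 scale in mutants (adjusted p = 0.00033) and by 0.98 in N2 (adjusted p = 0.000131), while vha-7 rose by 0.61 ± 0.12 in mutants and 0.80 ± 0.12 in N2. The members' own median log2 values were 0.54 and 0.57, and those of all tested genes were 0.01 and -0.09.

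Of 15 tested regulators 10 rose and 1 fell in mutants, where 24.9% of all genes rose, and 6 rose and 1 fell in N2, where 23.8% rose. The list holds both activators and inhibitors of autophagy, so these counts give no direction for the process. mxl-2 and mxl-1, partners of helix-loop-helix transcription factors, rose in both genotypes (1.02 ± 0.12 and 1.28 ± 0.18 in mutants, 0.92 ± 0.12 and 1.23 ± 0.18 in N2). With them among the smallest p in N2 was ragc-1, which rose there by 0.77 (adjusted p = 0.00011). In mutants ragc-1 averaged 188.5 ± 11.2 CPM at day 5 and 119.8 ± 12.7 CPM at day 0. hlh-30 encodes the TFEB factor that activates autophagy and lysosome genes in this animal. It rose in mutants by 1.47 ± 0.24 (adjusted p = 0.000271), to 157 ± 39.2 CPM at day 5, against 56.5 ± 18.8 CPM at day 0. In N2 it averaged 86.4 ± 15.3 CPM at day 5 and 64.4 ± 7.09 CPM at day 0, a difference of 0.42 ± 0.24 that did not pass (adjusted p = 0.153), and the difference between the genotypes in the change with age was 1.05 ± 0.33 (adjusted p = 0.191).

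Between the genotypes at day 0 edgeR, DESeq2 and limma called 0 genes over the 6 lists, with 6 genes at an unadjusted p under 0.05. At day 5 edgeR called 3 of the 77 tested genes of the 6 lists, beside 10.7% of all genes, and DESeq2 called 9 and limma 6. hlh-30 was higher in mutants (log2 0.86 ± 0.24, adjusted p = 0.0383), as was epg-2, at 21.8 ± 3.55 CPM in mutants and 10.97 ± 2.69 CPM in N2 (0.99 ± 0.24, adjusted p = 0.0239), and pink-1 was lower, at 40.0 ± 2.28 CPM in mutants and 56.0 ± 4.35 CPM in N2 (-0.49 ± 0.12, adjusted p = 0.0206). The hlh-30 call was lost in 6 of 17 alternatives and those of epg-2 and pink-1 in 4 of 17 each, with adjusted p up to 0.145, 0.112 and 0.0916 for hlh-30, epg-2 and pink-1. Averaged over both ages epg-2 passed in edgeR (0.85 ± 0.17, adjusted p = 0.0143), the 1 list gene to do so beside 5.21% of all genes, and DESeq2 and limma each called 2 list genes. In the change with age edgeR, DESeq2 and limma called 0 list genes as different between the genotypes, with 6 at an unadjusted p under 0.05.

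Genes whose levels ran most like those of 3 members were found by Pearson's r of log2 CPM over the 12 libraries, among 7920 genes whose mean log2 CPM was 3 or more. The 12 points share their split into 2 ages, and the values are a description with no test. For sqst-1 they were C18B2.4 (0.99), chts-1 (0.99) and lact-3 (0.99), for lgg-1 T04A6.1 (0.96), C01A2.4 (0.95) and ttr-17 (0.94), and for bec-1 faah-2 (0.74), dhs-9 (0.72) and H20J04.6 (0.71). The values for bec-1, which did not pass a test with age, were the lowest of the 3.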

How the data were processed

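Tests ran on the deposited whole-number counts of reads per gene, which the authors left unscaled. Per the submitters' processing notes, which give no roles, STAR 2.4.0h and DESeq2 were used with build WBcel235. The sources used here name no read counter, annotation or strand setting. The deposited log2 values are regularized log2 per the labels, and they entered an alternative fit alone.

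In R 4.3.3, edgeR 4.0.16 kept 16764 genes by filterByExpr, scaled libraries with TMM factors of 0.868 to 1.17 and fitted 4 group means to 12 libraries (common dispersion 0.0714, 8 residual degrees of freedom). The quasi-likelihood F-test was adjusted by Benjamini-Hochberg within each of 6 contrasts over all 16764 genes, with a threshold of 0.05. The SE was the log2 fold change divided by the square root of F. A count of 3 corresponds to 0.045 to 0.157 CPM. Exon lengths came from Ensembl release 115 and covered 98.9% of tested genes.

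The members and lists were chosen with earlier results of these data known. The rule named all members, up to 3 genes with the smallest p per list and contrast, and the 3 genes most like lgg-1, bec-1 and sqst-1. atg-3, atg-4.2, vps-34, vps-15, epg-8, vps-18 and hlh-30 in N2 were added after their values were seen. Of the listed symbols epg-1, atg-11 and rub-1 matched no gene ID. The fit was also run on simulated counts with the same dispersion for every gene and few changed genes. These data differ in both, so that run gives no support to the calls here. Chi-square per gene was 28.9 to 319 over the 12 pairs of replicates within a group, so none of these pairs agreed within counting noise. At day 0 same-numbered libraries of the genotypes had correlated deviations (0.285 to 0.758), and differently numbered ones ran from -0.763 to 0.148. Deviations from a mean of 3 libraries are tied to each other, so these values do not settle whether the libraries were paired. The replicate block changed no member's call at day 0. Alternatives were RLE or upper-quartile factors, TMM factors without tissue marker genes, no filter, DESeq2 1.42.0, limma 3.58.1 on the deposited log2 values, the groups of a contrast alone, the replicate block, each library left out and 3 day 0 libraries left out. Removal of the trend in gene length was added after seeing the data.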

Additional observations from a re-analysis of the deposited data

How the results depend on the processing

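Of 1100 member values recomputed, 994 kept direction and side of the threshold, 39 lost or gained a call and 67, none of them called, changed sign. Without 3 day 0 libraries 3 members passed with age in mutants. At day 5 between genotypes 1 member passed with RLE factors, no filter, DESeq2, limma, the groups alone, either replicate block (all libraries or the groups alone) and without 3 day 0 libraries, and 2 passed with the length trend removed. Leaving out single libraries gave 4 to 6 members with age in mutants, 4 to 5 in N2, and 0 to 1 averaged over both ages. Outside day 0, same-numbered libraries did not all deviate together, with correlations down to -0.157. The replicate block over all libraries added epg-5 with age in mutants (0.79, adjusted p = 0.045), and over the groups alone it lost lgg-1 there (0.38, adjusted p = 0.0605). The search of promoters for motifs was not run. The causes were not tested.

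Sign changes without 3 day 0 libraries (log2) were, with age in mutants, unc-51 -0.0014, atg-7 0.033 and dct-1 -0.14; between genotypes at day 0 unc-51 0.086, lgg-2 0.31, atg-2 0.18, atg-18 0.034 and epg-5 0.32; averaged atg-2 0.12 and epg-5 0.25; and between the changes with age lgg-2 -0.23, atg-2 -0.11, atg-18 -0.14 and epg-5 -0.15. With RLE factors, DESeq2 and limma in turn they were, for unc-51 with age in N2, 0.0072, 0.0071 and 0.023, for atg-2 at day 5 -0.014, -0.014 and -0.0077, for unc-51 averaged -0.0086, -0.0086 and -0.023, for lgg-2 averaged -0.023 each and for atg-18 between changes -0.0032, -0.0030 and -0.0067. The block gave unc-51 in N2 0.027 over all libraries and 0.0039 over the groups alone. With the length trend removed unc-51 in N2 had 0.026, lgg-2 at day 5 -0.056, atg-2 at day 5 -0.088, lgg-2 averaged -0.085, and between changes atg-2 -0.017 and atg-18 -0.041. Upper-quartile factors gave averaged bec-1 0.0012 and epg-5 0.014, and put the median of all genes with age in N2 at -0.22, in place of -0.09.

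Leaving out 1 library gave the ranges -0.029 to 0.14 (atg-18) and -0.016 to 0.33 (lgg-2) between changes; -0.0079 to 0.17 (atg-2) at day 5; -0.12 to 0.037 (atg-7), -0.30 to 0.015 (atg-9), -0.72 to 0.14 (epg-5), -0.25 to 0.079 (lgg-2), -0.42 to 0.020 (sqst-1) and -0.50 to 0.059 (unc-51) at day 0; -0.18 to 0.16 (unc-51) with age in N2; and averaged -0.083 to 0.053 (bec-1), -0.27 to 0.15 (epg-5), -0.083 to 0.071 (lgg-2) and -0.11 to 0.16 (unc-51).

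Calls over all genes differed by over 1.5 times between genotypes at day 0, where 22 became 0 with the groups alone, 60 with the block added to them, 61 with DESeq2, 8 without 3 day 0 libraries and as few as 5 without 1 library. At day 5 the 1798 calls became 2975 with DESeq2, 2722 with the groups alone, 3096 with the block added, 2836 with the length trend removed and as few as 608 without 1 library. The 874 averaged calls became 1800 with DESeq2 and as few as 455 without 1 library. The 93 calls between changes became 559 with DESeq2, 245 with no filter, 162 with limma, 233 with the block, 24 without 3 day 0 libraries and 9 to 463 without 1 library.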
